A study of Homo sapiens with 10 samples.

Results

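Levels of 10 interferon-induced genes were compared between the RNA of microvesicles and the RNA of the K562 cells that released them. The genes are OAS1, OAS2, OAS3, OASL, IFIT1, IFIT2, IFIT3, IFIT5, MX1 and BST2. Every probe set with one of these symbols as its only listed gene was taken, which gave 18 of the 54613 probe sets tested, and 0 probe sets listed one of them together with another gene. Microvesicles, membrane-bound particles shed into the medium, were represented by 5 arrays, and cells by 5 arrays. K562 is an established human line from a chronic myeloid leukaemia with erythroid features, so all 10 arrays rest on 1 line. The labels name no interferon or other agent for either group. The RNA came from 5 experiments that the labels call independent and was extracted with Trizol, and the labels do not say whether a cell and a microvesicle preparation with the same number came from the same culture. The p-values therefore measure the spread between these preparations. Arrays of both groups were labelled from the same mass of total RNA, so they show the make-up of the RNA and not its amount. How the vesicles were isolated was not stated in the labels.

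Interferons are secreted proteins that alert cells to viruses. They act through cell surface receptors and JAK kinases on transcription factors that bind a short repeated DNA element in front of interferon-induced genes. The OAS proteins sense double-stranded RNA, and the active enzymes among them make short oligoadenylates that switch on a latent ribonuclease. IFIT proteins bind viral RNA that lacks the marks of host mRNA and hinder its translation. MX1 encodes a dynamin-like GTPase that blocks viruses such as influenza. BST2, also called tetherin, is a membrane protein that holds budding virus particles, and vesicles of other kinds, on the cell surface. In cells not exposed to interferon most of these genes are transcribed little.

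BST2 was the gene of the group with a level clear of background on all 10 arrays, and it was 3.13-fold lower in microvesicles than in cells, a change of -1.64 that came to -0.86 after loess normalization by level and to -0.84 after quantile normalization again. For OAS1, OAS2, OAS3, OASL, IFIT1, IFIT2, IFIT5 and MX1, all probe sets lay near background in both groups. Of the 18 probe sets, 8 rose and 2 fell in microvesicles at an adjusted limma p under 0.05, against 35.4% and 27.0% of all 54613 probe sets, so that 10 of 18 changed, against 62.4% of all. Both OAS1 probe sets rose. The pair of IFIT3 probe sets moved in opposite directions. Each change is the microvesicle mean minus the cell mean of the deposited log2 values, with its SE after the ± sign, whereas a ± sign after a group mean gives the SD.

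Promoter sequences were searched for 2 forms of the DNA element through which interferon acts. They were taken from RefSeq (GRCh38.p14), as windows from 250 bases before to 50 bases after a start site, and 7 of the 10 genes matched, with 10 windows. The motifs searched were GAAA followed by any 2 bases (NN) and a further GAAA, the core of the interferon-stimulated response element, and the same with a spacer of any 1 base (N). Both strands were searched, and matches were allowed to overlap. The element with the longer spacer was found in 8 of the 10 windows (6 of the 7 genes, OAS1 being the exception) and in 3.57% of the 35116 promoter windows of the RefSeq table. The element with the shorter spacer was found in 5 of the 10 windows (4 genes), against 3.12% of all windows. All 10 windows held at least 1 of them, against 6.40% of all windows. MX1 and IFIT3 have more than 1 of these windows each. The genes were chosen as interferon-induced, so the contrast with all windows follows from that choice and is not a test. OAS2, OASL and IFIT2 were not among the sequences used. Windows of 3 genes are printed 5′ to 3′ on the strand of the gene, with the matches in capitals, because BST2 and IFIT3 have the probe sets that reached levels above background and OAS1 has the largest rise.
BST2, chr19:17405581-17405880, minus strand: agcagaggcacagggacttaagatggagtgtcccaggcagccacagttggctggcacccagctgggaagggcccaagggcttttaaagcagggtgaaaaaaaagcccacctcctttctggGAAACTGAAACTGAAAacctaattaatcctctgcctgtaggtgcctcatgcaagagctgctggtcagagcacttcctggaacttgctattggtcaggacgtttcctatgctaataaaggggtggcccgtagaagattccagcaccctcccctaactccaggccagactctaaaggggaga
IFIT3, chr10:89327747-89328046, plus strand: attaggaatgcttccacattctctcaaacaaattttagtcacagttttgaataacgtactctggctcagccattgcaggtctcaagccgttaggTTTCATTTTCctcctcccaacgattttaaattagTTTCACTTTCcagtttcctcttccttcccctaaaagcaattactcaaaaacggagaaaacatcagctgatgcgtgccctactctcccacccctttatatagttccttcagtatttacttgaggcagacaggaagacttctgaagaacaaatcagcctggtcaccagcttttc
OAS1, chr12:112906712-112907011, plus strand: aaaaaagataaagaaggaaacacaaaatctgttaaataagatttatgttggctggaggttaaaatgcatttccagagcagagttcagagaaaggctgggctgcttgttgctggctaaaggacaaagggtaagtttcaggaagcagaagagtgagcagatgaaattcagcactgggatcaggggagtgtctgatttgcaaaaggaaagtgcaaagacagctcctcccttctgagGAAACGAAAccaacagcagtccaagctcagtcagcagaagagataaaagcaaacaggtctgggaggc
The BST2 window holds 2 overlapping matches that begin 130 and 124 bases before the start site, and OAS1 has 1 match that begins 17 bases before it. IFIT3 has another start site, not printed, whose window holds 3 matches. A match describes the letters of the window, and binding of a factor was not measured here.

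The deposited table has no detection calls, so background was read from gene families best known from nose, tongue and hair. These were 161 probe sets of 133 genes for olfactory receptors, taste receptors and keratin-associated proteins. A probe set was taken as near background in a group where its mean lay at or under the 95th percentile of this panel in the same group, which was 5.15 in microvesicles and 4.75 in cells. By this rule 16 of the 18 probe sets were near background in both groups, against 57.4% of all probe sets. A level near background does not show that a transcript was absent.

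The background itself was higher in microvesicles. The median of the panel was 3.49 ± 0.072 on microvesicle arrays and 2.83 ± 0.094 on cell arrays (SD over 5 arrays each). The exact permutation p of this difference was 0.00794, the smallest this design allows, and 0.00992 after adjustment over 5 array measures. In the panel 97 of the 161 probe sets rose and 3 fell. Of all probe sets with a mean over the 10 arrays between 3 and 4, 45.1% rose and 9.03% fell, whereas between 7 and 8 the shares were 5.80% and 69.5%. For this reason the change of each of the 18 probe sets of the 10 genes is also given after loess normalization by level. In this step each array was fitted against the mean array and the fitted curve was removed. Loess did not remove the whole difference in background. The panel median was still 0.17 higher in microvesicles and the panel's 95th percentile 0.45 higher, against 0.66 and 0.50 in the deposited values. The exact permutation p after loess was 0.0132 adjusted for each. In the panel 25 probe sets rose and 9 fell after loess. For ACTB the control probe set at the 3′ end exceeded the one at the 5′ end, a gap that is larger in shorter RNA, by 3.12 ± 0.34 in microvesicles and 2.39 ± 0.15 in cells (SD over 5 arrays each; the exact permutation p was 0.00794, or 0.00992 adjusted). Its part in the changes below was not tested. Centring each array on its own median, which was 4.26 ± 0.022 in microvesicles and 4.10 ± 0.015 in cells (SD, n = 5 each), lowers every change by 0.16. Markers of the line were present: of 18 probe sets for 8 erythroid genes such as HBE1 and TFRC, 11 to 14 exceeded the panel's 95th percentile on microvesicle arrays and 13 to 14 on cell arrays, and their log2 values summed to 114.7 to 125.2 in microvesicles and 128.8 to 133.6 in cells. By limma 3 of them rose and 8 fell (16.7% and 44.4%), against 35.4% and 27.0% of all probe sets. Of 18 probe sets for 11 marker genes of lymphocytes, monocytes and other blood cells, 2 to 3 exceeded it on microvesicle arrays and 2 on each cell array, namely a CD3D and a CD79A probe set by their group means. The log2 values of these markers summed to 69.3 to 78.3 in microvesicles and 58.1 to 63.1 in cells, and none of them is listed at 0. By limma 13 of them rose and 0 fell (14 and 0 at an unadjusted p under 0.05, 8 and 0 by the exact rank sum test). The share that rose, 72.2%, stood beside 35.4% of all probe sets and 60.2% of the background panel. In both groups 16 of the 18 were near background. After loess 5 rose and 0 fell. The part of these markers in the changes of the interferon-induced genes was not tested.

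**Figure D1:**
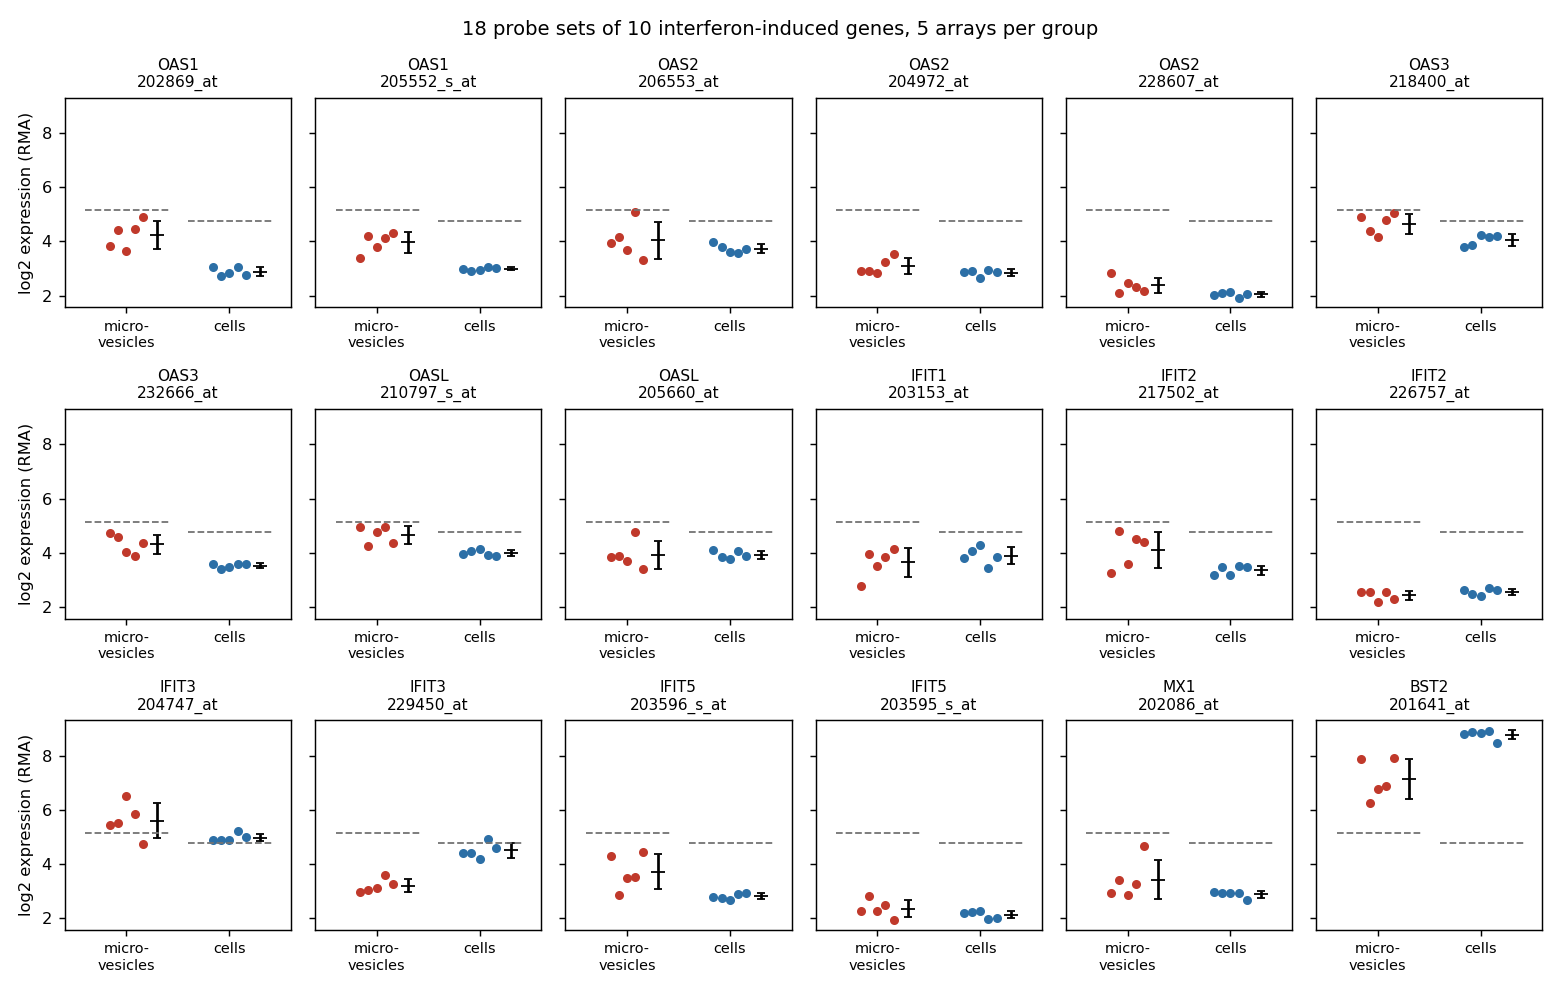
Log2 expression (RMA) of the 18 probe sets, with 1 point per array, microvesicles (red) left of cells (blue), and group mean ± SD in black (n = 5 each). Dashed lines mark the background level of each group, 5.15 in microvesicles and 4.75 in cells, and BST2 lies above it on all 10 arrays.

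Among the OAS genes, 5 of 9 probe sets rose and 0 fell by limma (5 and 0 at an unadjusted p under 0.05, 4 and 0 by the exact rank sum test), and all 9 were near background in both groups. The share that rose, 55.6%, stood beside 35.4% of all probe sets. By level, 59.0% of those with a mean up to 3 rose, 45.1% between 3 and 4 and 35.0% between 4 and 5. The OAS2 probe sets 204972_at and 228607_at, with means up to 3, did not pass. OAS3 218400_at and OASL 210797_s_at, with means between 4 and 5, rose. After loess 2 of them rose, both of OAS1, against 18.2% of all probe sets. OAS1 encodes the smallest of the enzymes that make oligoadenylates. Its probe set 202869_at read 3.82, 4.42, 3.63, 4.46 and 4.92 in microvesicles 1 to 5, against 3.06, 2.74, 2.85, 3.04 and 2.75 in cells 1 to 5. Every microvesicle value was above every cell value, and microvesicles 5 was the highest. The change was 1.36 ± 0.23, or 2.57-fold higher in microvesicles (limma adjusted p = 0.000264), and 0.96 ± 0.22 after loess (limma adjusted p = 0.00304).

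The other OAS1 probe set, 205552_s_at, read 3.37, 4.21, 3.81, 4.12 and 4.31 in microvesicles, against 2.99, 2.90, 2.96, 3.06 and 3.03 in cells. Again the groups did not overlap, and the cell values lay within 0.16 of each other. The change was 0.98 ± 0.19 (1.97-fold higher, limma adjusted p = 0.00073) and 0.56 ± 0.18 after loess (limma adjusted p = 0.0223). The ending _s_at marks a probe set whose probes can match several transcripts, and which of them gave the signal was not tested. On none of the 10 arrays did either OAS1 probe set exceed the panel's 95th percentile of that array, so the folds compare signals at background level and their size is uncertain.

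OAS3 encodes the longest of these enzymes. Its probe set 232666_at read 4.72, 4.56, 4.02, 3.88 and 4.34 in microvesicles, against 3.56, 3.38, 3.45, 3.59 and 3.59 in cells. These groups did not overlap either, and the change was 0.79 ± 0.19 (limma adjusted p = 0.00258). The other OAS3 probe set, 218400_at, ran from 4.15 to 5.05 in microvesicles and from 3.78 to 4.25 in cells, so its groups overlapped, with a change of 0.59 ± 0.20 (limma adjusted p = 0.0214). That call was lost without cells replicate 1 (adjusted p = 0.0604) or cells replicate 2 (adjusted p = 0.0563). After loess the changes were 0.48 and 0.41, and neither passed (limma adjusted p = 0.0567 and 0.135).

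OASL encodes a relative of the OAS enzymes that lacks their activity in humans. Its 2 probe sets differed. The probe set 210797_s_at ran from 4.25 to 4.95 in microvesicles and from 3.89 to 4.15 in cells without overlap, a change of 0.66 ± 0.18 (limma adjusted p = 0.00685), with 0.47 after loess (limma adjusted p = 0.0544, not passed). The probe set 205660_at ran from 3.40 to 4.75 in microvesicles and from 3.77 to 4.11 in cells, a difference of -0.02 ± 0.22 (limma adjusted p = 0.954). Only microvesicles 4 exceeded the mean of the cells there. After loess the difference was -0.33 (limma adjusted p = 0.263, not passed).

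OAS2, another of the enzymes, did not pass in any of its 3 probe sets, whose limma adjusted p was 0.108 to 0.339. The probe set 206553_at read 3.95, 4.17, 3.68, 5.08 and 3.30 in microvesicles, against 3.98, 3.78, 3.60, 3.59 and 3.73 in cells. Microvesicles 4 was the highest and microvesicles 5 the lowest of all 10 arrays, and the groups overlapped. Its difference was 0.30 ± 0.27. The probe sets 204972_at and 228607_at differed by 0.24 ± 0.17 and 0.33 ± 0.17, and all 3 differences were below 0 after loess (-0.02, -0.27 and -0.23, none passed).

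The IFIT genes are neighbours in a cluster on chromosome 10. Of their 7 probe sets 3 rose and 1 fell (42.9% and 14.3%), against 35.4% and 27.0% of all probe sets. After loess 1 rose and 2 fell, against 18.2% and 21.9% of all. IFIT3, whose product binds that of IFIT1 and strengthens its hold on viral RNA, gave the 2 results furthest apart. Its probe set 204747_at read 5.42, 5.51, 6.49, 5.83 and 4.73 in microvesicles, against 4.89, 4.87, 4.88, 5.20 and 4.98 in cells. Microvesicles 5 lay below all cell arrays, and the other microvesicle arrays were above all of them. The means, 5.60 ± 0.64 in microvesicles and 4.96 ± 0.14 in cells (SD, n = 5 each), were above background in both groups, by 4 of 5 arrays in each. The change was 0.63 ± 0.26 (limma adjusted p = 0.0474) and 0.88 ± 0.24 after loess (limma adjusted p = 0.0103). In the deposited values the call was lost without any 1 of 9 arrays, with adjusted p up to 0.112 (without microvesicles replicate 3), and it held when microvesicles replicate 5 was left out.

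The other IFIT3 probe set, 229450_at, read 2.97, 3.04, 3.11, 3.57 and 3.24 in microvesicles, against 4.40, 4.38, 4.18, 4.90 and 4.59 in cells. All microvesicle values were below all cell values. Cells 4 was the sole array on which it exceeded the panel's 95th percentile. The change was -1.31 ± 0.18, or 2.47-fold lower in microvesicles (limma adjusted p = 5.96e-05), and -1.64 ± 0.18 after loess (limma adjusted p = 8.36e-06). Of all probe sets with a mean between 3 and 4, as here, the middle of the distribution of changes ran from 0.09 to 0.82 (quartiles). As both group means were at or under background, 3.18 in microvesicles and 4.49 in cells, the size of the fall is uncertain. The mean of the 2 probe sets gave IFIT3 a difference of -0.34 ± 0.17 (limma adjusted p = 0.0983, not passed).

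IFIT5, which binds single-stranded RNA with a phosphate end, also had 2 probe sets. The probe set 203596_s_at read 4.30, 2.84, 3.46, 3.52 and 4.43 in microvesicles, against 2.78, 2.74, 2.67, 2.88 and 2.93 in cells. Microvesicles 2 lay within the range of the cells and the other microvesicle arrays above it. The change was 0.91 ± 0.26 (limma adjusted p = 0.00936), but 0.44 after loess (limma adjusted p = 0.206, not passed). The probe set 203595_s_at ran from 1.91 to 2.81 in microvesicles and from 1.97 to 2.24 in cells, with a difference of 0.23 ± 0.18 (limma adjusted p = 0.275). After loess this difference was -0.33 (limma adjusted p = 0.198, not passed).

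IFIT2, which has been tied to apoptosis as well as to the antiviral response, read 3.24, 4.79, 3.56, 4.50 and 4.38 with its probe set 217502_at in microvesicles, against 3.17, 3.45, 3.18, 3.51 and 3.46 in cells. Microvesicles 1 lay among the cell values. The change was 0.74 ± 0.27 (limma adjusted p = 0.0278), and it did not pass after loess (0.38, limma adjusted p = 0.262). The call was also lost without cells replicate 1 or 3 or microvesicles replicate 2, 4 or 5 (adjusted p from 0.0564 to 0.0678). Its other probe set, 226757_at, ran from 2.18 to 2.55 in microvesicles and from 2.40 to 2.68 in cells, a difference of -0.13 ± 0.15 (limma adjusted p = 0.47). After loess this became a fall of -0.68 ± 0.15 (limma adjusted p = 0.00272).

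IFIT1, the family member that recognises mRNA caps without a methyl mark, had 1 probe set. It read 2.76, 3.93, 3.49, 3.85 and 4.15 in microvesicles, against 3.80, 4.07, 4.27, 3.43 and 3.83 in cells. The groups overlapped, with microvesicles 1 the lowest array. The difference was -0.24 ± 0.25 (limma adjusted p = 0.409), and -0.59 after loess (limma adjusted p = 0.0695, not passed).

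MX1 was also read by 1 probe set, with 2.92, 3.41, 2.83, 3.25 and 4.65 in microvesicles, against 2.97, 2.90, 2.92, 2.93 and 2.65 in cells. Microvesicles 5 was the highest array, and microvesicles 1 and 3 lay among the cell values. The difference was 0.54 ± 0.29 (limma adjusted p = 0.114), and without microvesicles replicate 5 it was 0.23. After loess, with all arrays, it was 0.05 (limma adjusted p = 0.908).

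BST2 read 7.87, 6.26, 6.76, 6.87 and 7.90 in microvesicles, against 8.80, 8.88, 8.84, 8.91 and 8.47 in cells. The groups did not overlap, and microvesicles 1 and 5 were closest to the cells. The means were 7.13 ± 0.73 in microvesicles and 8.78 ± 0.18 in cells (SD, n = 5 each), a change of -1.64 ± 0.29 (limma adjusted p = 0.00034). After loess the change was -0.86 ± 0.27 (limma adjusted p = 0.0206). Of all probe sets with a mean between 7 and 8, 69.5% fell, their median change was -1.01 and their quartiles were -1.65 and -0.36. BST2 thus stood between the quartiles, just above the lower one. The 3 genes whose probe sets followed BST2 most closely over the 10 arrays were RIF1 (Pearson r = 0.991), SDHC (0.991) and HPS5 (0.990), with changes of -1.96, -2.02 and -1.93. This likeness is a description in which the group difference weighs most.

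**Figure D2:**
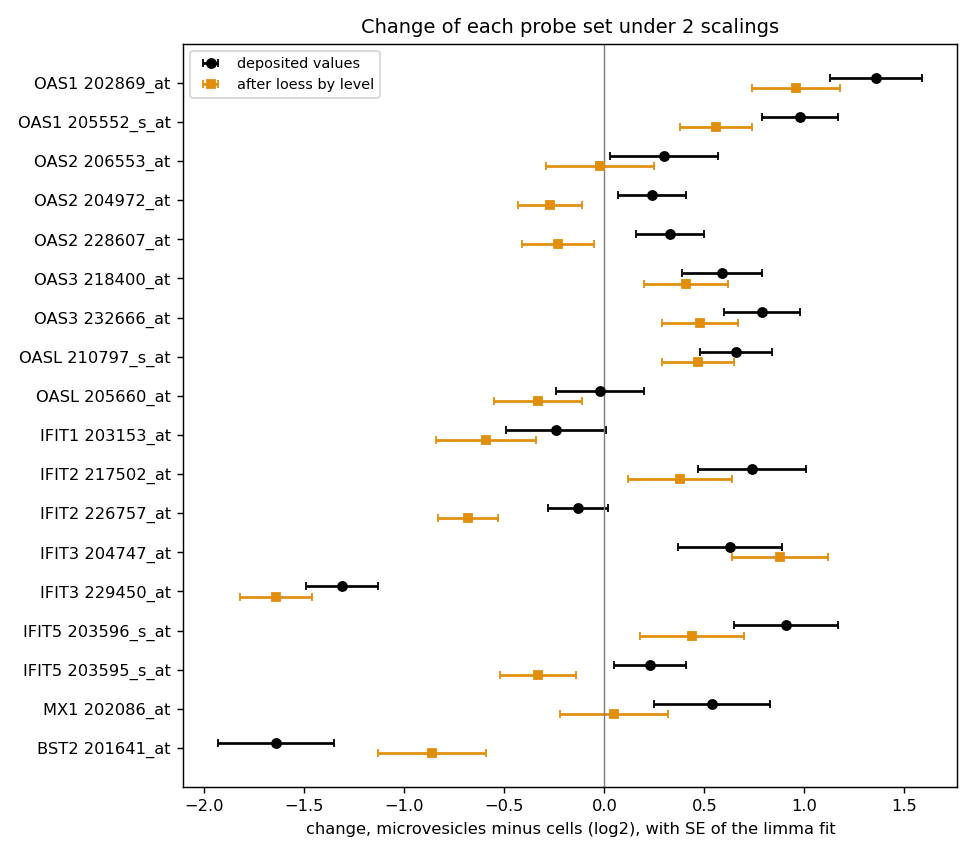
Change of each of the 18 probe sets, microvesicles minus cells (log2), with the SE of the limma fit, for the deposited values (black circles) and after loess by level (orange squares). OAS1, IFIT3 and BST2 passed under both scalings, with IFIT3 on both sides of 0, while the 3 OAS2 probe sets changed sign.

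Over the whole group the median change was 0.43, and 0.01 after loess, against 0.27 and 0.03 for all probe sets. Groups were apart without overlap for 4 probe sets that were higher in microvesicles and 2 that were lower, against 24.0% and 22.0% of all probe sets. The share that rose, 44.4%, was close to the 45.1% of probe sets at a mean between 3 and 4, where 10 of the 18 lay. After loess 3 rose and 3 fell, against 18.2% and 21.9% of all probe sets. The spread was larger in microvesicles for 17 of the 18 probe sets, with a median SD of 0.442 in microvesicles and 0.133 in cells, and for 94.0% of all probe sets. Microvesicles 5 was the highest microvesicle array for 8 of the 18 probe sets and the lowest for 4. In bulk RNA a lower share of vesicles that carry a transcript cannot be told apart from fewer copies per vesicle.

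**Figure D3:**
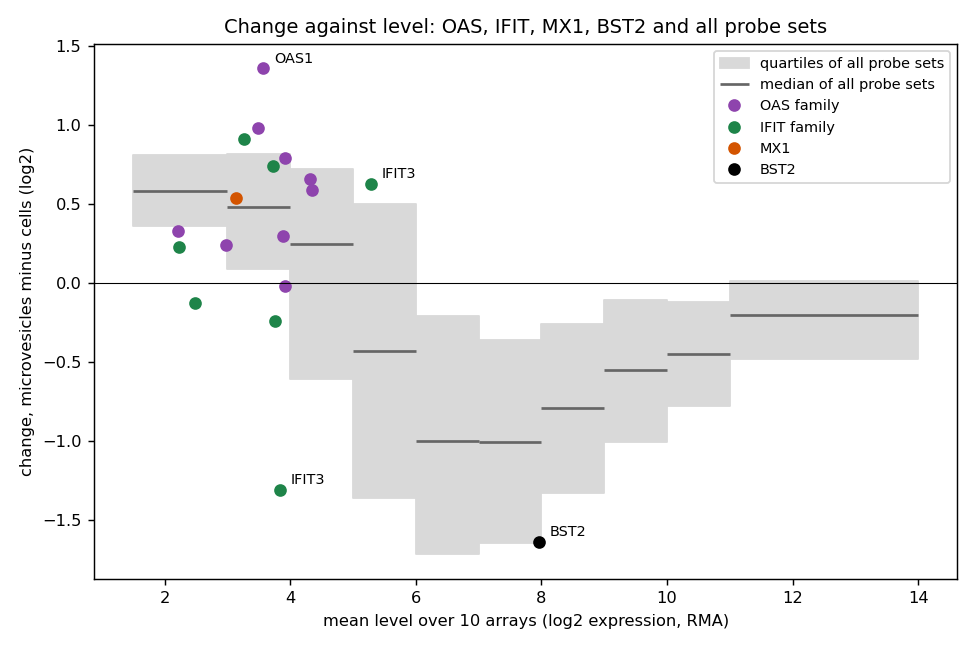
Change, microvesicles minus cells (log2), against the mean level over the 10 arrays (log2 expression) for the 18 probe sets, with the median (line) and quartiles (grey) of all 54613 probe sets in steps of level. Most points lie at the dim end where the median of all probe sets is above 0, the lower IFIT3 point lies below the quartiles there, and BST2 lies at the lower quartile of its level.

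Of the 7 genes with more than 1 probe set, OAS1 and OAS3 rose in all of theirs. In 3 others (OASL, IFIT2 and IFIT5) 1 probe set rose and the other did not pass, and IFIT3 had a rise and a fall. With 1 value per gene, 6 genes rose and 1 fell when the brightest probe set stood for the gene. When the mean of its probe sets did, 3 rose (OAS1, OAS3 and IFIT5) and 1 fell (BST2).

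Other genes of the pathway are given by their role, beside 35.4% of all probe sets that rose and 27.0% that fell (18.2% and 21.9% after loess). Differences between these lists were not tested. For genes of these lists, every change printed also passed after loess in the same direction, although its size differed. K562 cells are known to have lost the cluster that holds the interferon alpha and beta genes. Interferon genes of all kinds, 18 probe sets of 18 genes, were all near background in both groups, and by limma 13 rose and 0 fell (14 and 0 at an unadjusted p under 0.05, 12 and 0 by the exact rank sum test). Their median change of 0.77 stood beside 0.61 in the background panel, and after loess 4 rose, with a median of 0.24. Among receptors and signal transducers, 24 probe sets of 10 genes, 2 rose and 17 fell (70.8%), with a median of -1.08, and after loess 2 rose and 16 fell, with a median of -0.87. In microvesicles 16 of the 24 were near background, and in cells 5. The share of all probe sets that fell depended on level. It was 45.9% at a mean between 5 and 6, 64.8% between 6 and 7 and 69.5% between 7 and 8. The receptor gene IFNGR1, which serves interferon gamma, had 3.65 ± 0.41 in microvesicles and 7.43 ± 0.45 in cells (SD, n = 5 each), a change of -3.79 ± 0.25 (limma adjusted p = 1.11e-07). Of its other 2 probe sets 1 rose and 1 fell, and the mean in microvesicles was near background, so that the size of the change is uncertain. The same limit holds for the kinase gene JAK2, with 4.0 in microvesicles, near background, and 6.5 in cells, a change of -2.51 ± 0.24 (limma adjusted p = 2.21e-06), and its other 2 probe sets also fell. IRF9, the DNA-binding part of the factor that carries the interferon signal to these genes, was 4.93 ± 0.40 in microvesicles, near background, and 5.76 ± 0.20 in cells (SD, n = 5 each), a change of -0.83 ± 0.20 (limma adjusted p = 0.00351) and -0.55 after loess (limma adjusted p = 0.0457). IFNLR1, the receptor gene for interferon lambda, rose by 0.76 ± 0.30 in 1 of 2 probe sets (limma adjusted p = 0.0368).

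Sensors of foreign nucleic acid and their adaptors had 7 rises and 8 falls among 31 probe sets of 15 genes (22.6% and 25.8%, against 35.4% and 27.0% of all probe sets), and 1 rise and 7 falls after loess. MAVS, the mitochondrial adaptor of the RNA sensors, fell in all 4 of its probe sets, with a change of -2.17 ± 0.28 in the one that fell most (limma adjusted p = 2.76e-05). After loess that change was -1.37 (limma adjusted p = 0.00064). RIGI, one of those sensors, was 3.80 in microvesicles, near background, and 4.90 in cells in 1 of its 3 probe sets. The groups overlapped there, with 2.58 to 5.03 in microvesicles and 4.65 to 5.16 in cells. The change was -1.10 ± 0.33 (limma adjusted p = 0.0118), and of the other probe sets 1 fell and 0 rose. The kinase gene IKBKE changed by 0.47 ± 0.19 in 1 of its 2 probe sets (limma adjusted p = 0.0399), and the other did not pass. Genes that act on double-stranded RNA beside the OAS enzymes had 2 rises and 7 falls among 13 probe sets of 5 genes (15.4% and 53.8%), and 4 rises and 7 falls after loess. EIF2AK2, the kinase PKR that halts translation when it meets such RNA, was 5.44 ± 0.81 in microvesicles and 7.69 ± 0.12 in cells (SD, n = 5 each). This was a change of -2.25 ± 0.31 in 1 probe set (limma adjusted p = 4.86e-05), and -1.49 after loess (limma adjusted p = 0.000845). Its other 2 probe sets did not pass in the deposited values. PDE12, a nuclease that breaks down the oligoadenylates made by OAS enzymes, was 4.37 in microvesicles, near background, and 6.53 in cells, a change of -2.16 ± 0.19 (limma adjusted p = 1.28e-06), with 1 rise and 1 fall among its other 3 probe sets. ZC3HAV1, a zinc finger protein that binds viral RNA, rose by 0.76 ± 0.21 (limma adjusted p = 0.00698) in 1 probe set and fell in another. After loess that rise was 1.47 (limma adjusted p = 0.000193).

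Other interferon-induced genes showed 24 rises and 23 falls among 77 probe sets of 41 genes, shares of 31.2% and 29.9% that stood beside 35.4% and 27.0% of all probe sets, with a median change of 0.20. After loess there were 6 rises and 16 falls, and the median was -0.05. ISG15, a ubiquitin-like protein that is attached to other proteins during the interferon response, was above background in both groups, with 7.53 ± 0.61 in microvesicles and 6.77 ± 0.14 in cells (SD, n = 5 each). It rose by 0.76 ± 0.25 (1.70-fold, limma adjusted p = 0.0185), and by 1.57 after loess (limma adjusted p = 0.00033). LGALS3BP, a secreted glycoprotein, rose by 0.93 ± 0.26 (limma adjusted p = 0.00736). SAMHD1, an enzyme that degrades deoxynucleotides, was 4.74 in microvesicles and 6.97 in cells in 1 of its 6 probe sets. The change there was -2.23 ± 0.27 (limma adjusted p = 1.77e-05), and of the others 3 fell and 0 rose. TNFSF10, the death ligand TRAIL, was 3.79 in microvesicles and 5.97 in cells, a change of -2.18 ± 0.21 (limma adjusted p = 2.65e-06). Its other 2 probe sets also fell. The SAMHD1 and TNFSF10 means given were near background in microvesicles, so the size of these falls is uncertain. ISG15 and BST2, both above background in both groups, thus moved in opposite directions under the deposited scaling and after loess.

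**Figure D4:**
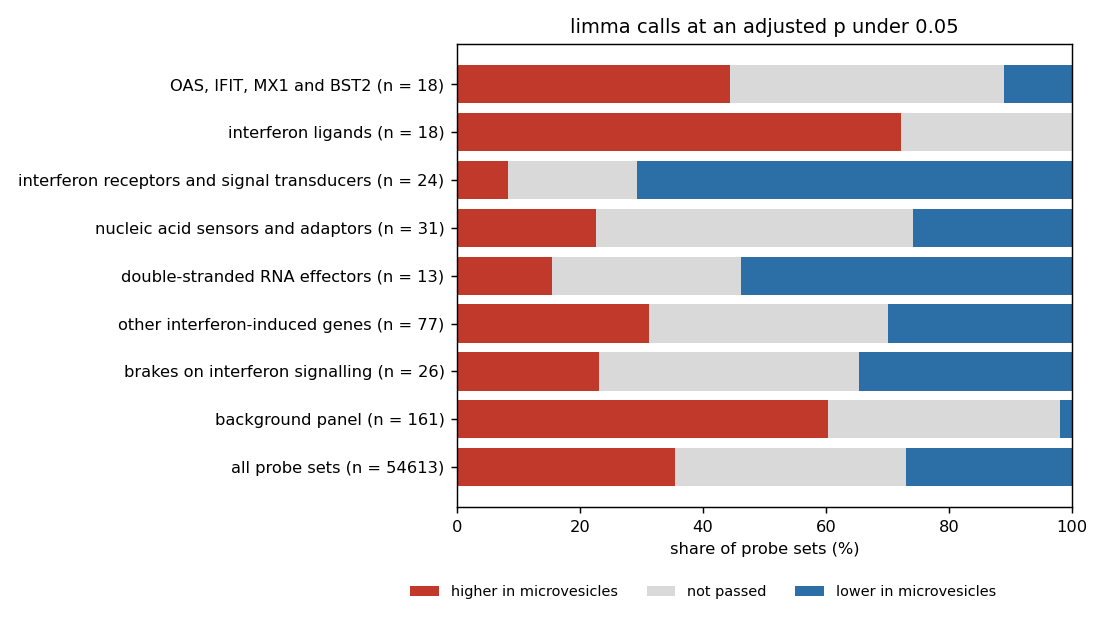
Share of probe sets (%) that were higher (red), not passed (grey) or lower (blue) in microvesicles by limma, for the OAS, IFIT, MX1 and BST2 group, the other genes of the interferon pathway by role, the background panel and all probe sets. Of the receptor and signal transducer probe sets 70.8% fell, and of the interferon genes 72.2% rose, against 60.2% of the background panel.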

How the data were processed

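Total RNA of 5 microvesicle and 5 cell preparations was hybridised to Affymetrix HG-U133 Plus 2.0 arrays, 1 column per array. The deposited values are log2 expression per probe set made with RMA by the authors, per the submitters' processing notes. The RMA settings were not given in the sources used here, nor the version. Array medians differed between the groups, and the values do not show the total amount of RNA. Of 54630 probe sets 17 controls were left out of the tests, 41091 list 1 gene, 1801 several and 11721 none. Symbols came from the platform annotation and were updated through the gene number for 41037.

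Groups were compared with limma 3.58.1 (R 4.3.3; lmFit, then eBayes), 2-sided, with Benjamini-Hochberg adjustment over 54613 probe sets, no filter on dim ones and a threshold of 0.05. Array measures were compared by exact permutation tests (scipy 1.17.1). The fit was also run on simulated data with the same SD in both groups and no shift by level. That run does not cover the larger spread in microvesicles or the shift by level in these data. Loess used a span of 0.4. Every probe set of the 10 genes was named. From each pathway list the rule took up to 2 rises and 2 falls of largest size with a level above background, plus genes named whatever their values. The genes, lists and tests were chosen with earlier results of these data known. Alternatives were other scalings, filters, weights, a rank test, a replicate block and leaving out arrays. Some planned genes and 1 planned control are not reported here. For arrays, their number limits the precision.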

Additional observations from a re-analysis of the deposited data

Results flagged for a closer look

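On 3 occasions among 46 sets of 5 arrays, 1 array stood apart from the other 4 of its group by more than 0.71 of the range of the group, where chance gives about 1 in 20. BST2 was 8.47 in cells replicate 5, with the next cell array at 8.80. Without cells replicate 5 its change was -1.72. MX1 was 2.65 in cells replicate 5, with the next cell array at 2.90, both near background. The OAS2 probe set 204972_at was 2.64 in cells replicate 3, with the next at 2.87, also near background.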

How the results depend on the processing

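The 8 rises among the 18 probe sets depended on the scaling and the test. They came to 5 with arrays centred on their median, 5 after quantile normalization again, 3 after loess, 4 by the exact rank sum test and 0 with only group means above 6, a filter that keeps BST2 alone (1 fall). Without 1 array at a time there were 5 to 7 rises (5 without cells replicate 1) and 2 falls each time. The genes that rose, 6 with the brightest probe set, were 3 with the mean of probe sets. The rises among all probe sets, 19318, came to 13042 with centring, 10283 after quantile normalization, 9959 after loess and 15868 by the rank sum test. As fewer were tested, they were 8654 and 1575 with filters at 4 and 6. The falls among all, 14758, came to 16490 with centring, 10107 after quantile normalization, 11944 after loess and 13161 by the rank sum test. Signs turned after loess for OAS2 (-0.02 in 206553_at, -0.27 in 204972_at, -0.23 in 228607_at) and IFIT5 203595_s_at (-0.33), and after quantile normalization for OAS2 204972_at (-0.20) and 228607_at (-0.08) and IFIT5 203595_s_at (-0.18). None of these had passed. Both OAS1 probe sets and the IFIT3 probe set 229450_at kept their call and direction in every setting that tested them, the filters leaving out some of them. OASL 205660_at ran from -0.22 to 0.11 without 1 array at a time. BST2 stayed past the threshold in all 9 other settings and without each array, from -1.84 to -0.84. In the deposited values the 3′ minus 5′ gap was larger in microvesicles by 0.73 for ACTB and 0.17 for GAPDH (exact permutation adjusted p = 0.00992 and 0.0159). After quantile normalization neither passed (0.33 and 0.06). After loess ACTB passed (0.41, exact permutation adjusted p = 0.0397) and GAPDH did not (0.10). The cause was not tested. With the replicate number as a block 8 probe sets rose and 2 fell, and no call among the 18 changed. Same-numbered preparations had correlations of -0.0252 to 0.108 between their deviations from the group means, and differently numbered ones of -0.0755 to 0.0732. The numbers were not taken as pairs because the labels do not say that equal numbers share a culture. The number near background in both groups was 16, and 15 and 12 under the panel's 90th percentile and the array median.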

Other observations

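Genes that restrain interferon signalling had 6 rises and 9 falls among 26 probe sets of 7 genes (23.1% and 34.6%, against 35.4% and 27.0% of all probe sets), with a median change of -0.03, and 5 rises and 7 falls after loess. SOCS3, an inhibitor of JAK kinases, rose in 3 of its 4 probe sets, and the one with the largest change was 5.97 ± 0.74 in microvesicles and 4.58 ± 0.18 in cells, near background there (SD, n = 5 each), a change of 1.39 ± 0.29 (limma adjusted p = 0.00125). PIAS1, a SUMO ligase that restrains the transcription factors of the pathway, fell in all 3 of its probe sets, with a change of -2.22 ± 0.29 in the one that fell most (limma adjusted p = 2.92e-05). PTPN11, a phosphatase, was 4.91 in microvesicles, near background, and 6.57 in cells, a change of -1.66 ± 0.22 (limma adjusted p = 3.27e-05), with 1 rise and 2 falls among its other 5 probe sets.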
